A study of Mus musculus with 55 samples.

Results

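Dorsal hippocampal RNA of 6 female KO mice in diestrus (mice 532, 643, 644, 645, 2592 and 7_1) was compared with that of 7 KO males (1950, 2016, 2128, 2129, 2589, 2590 and 2591). They are 13 of the 55 mice of the series, with 1 library from 1 hippocampus per mouse, and were chosen by the genotype and estrous stage in their labels, the males being the KO mice that carry no stage. KO mice lack exon 4 of Cnih3, which encodes an auxiliary protein of AMPA receptors, and all 13 carry this deletion in every tissue on a C57BL/6J background. The comparison therefore holds genotype fixed and sets females of 1 stage against males, so that sex and stage were changed together. Gene levels are given as CPM, the counts of a gene relative to the scaled size of its library, autosomal genes are described throughout, and genes of the sex chromosomes serve as a check of the labels.

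The 6 females were not alike in their numbering or their age. The 4 with 3-digit numbers were 10.86 to 13.86 weeks old. Mouse 2592 was 16.29 weeks and mouse 7_1 was 23.43 weeks, while the males, all with 4-digit numbers, were 18.29 to 23.71 weeks. The only other mice of the series with 3-digit numbers are 3 WT females, also in diestrus and 11.71 to 12.29 weeks old. The other WT diestrus mice were 16.43 to 17.14 weeks old. What the numbering stands for is not given in the sources used here. Among the diestrus mice of either genotype, the 3-digit number and an age under 14 weeks therefore cannot be told apart. All 3-digit KO mice were in diestrus, while the series also holds 6 KO females of other stages under 14 weeks without such a number. For this reason the 3-digit mice are shown apart from 2592 and 7_1 in what follows.

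The hippocampus holds excitatory pyramidal and granule neurons, inhibitory interneurons, astrocytes, oligodendrocytes and microglia, and in bulk tissue fewer cells of a type and less RNA per cell cannot be told apart. Diestrus is the stage of the estrous cycle in which leukocytes fill the vaginal smear and the corpora lutea are active. Messages for membrane and secreted proteins are translated on the endoplasmic reticulum (ER), those for cytosolic proteins on free ribosomes, and some long noncoding RNAs stay in the nucleus. The RNA of every mouse was taken from the supernatant of a detergent lysate after a slow spin, a step that leaves nuclei in the pellet. The share of each kind of RNA that reached the supernatant was not measured, and its part in the results was not tested.

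The 13 libraries held between 40797170 and 63547098 counts with a median of 56716667, and no pair of them correlated above 0.9905. The 4 libraries of the 3-digit mice, with 52307959 to 57198441 counts, lay inside the range of the males, from 40797170 to 63547098. In the fit, each library carried a quality weight, which was 1.61 to 1.74 for the 3-digit mice, 0.51 for 2592, 0.43 for 7_1, and from 0.28 (mouse 2590) to 2.35 (mouse 2591) among the males.

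The targeted gene and the sex-linked genes were checked first. Cnih3 stood at 23.5, 30.6, 28.8 and 21.6 CPM in the 3-digit mice, 31.2 in 2592 and 32.4 in 7_1, and at 27 to 45.9 with a median of 34.9 in the males. A count over the whole gene does not check the deletion, since the other exons are still transcribed, and the range over all 28 KO mice (21.6 to 47.8 CPM) overlapped that over the 27 WT mice (21.6 to 62.5 CPM). The difference between KO diestrus and KO males in Cnih3 did not pass the test, at -0.31 on the log2 scale (SE 0.15, FDR 0.121). Xist, which silences 1 X chromosome in females, lay between 2.43 and 5.94 CPM in the 6 females and between 0.0391 and 0.287 in the males. The Y-linked Kdm5d was 0 in all 6 females and 7.14 to 10.9 CPM in the males, so no library went against its sex label.

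In all 6 KO diestrus mice against the 7 KO males, 4440 autosomal genes of 15554 tested (28.5%) passed an FDR of 0.05, 1618 of them higher in diestrus (10.4%) and 2822 lower (18.1%). The genes that fell did so further than those that rose, with 422 lower by over 2-fold on the linear scale and 21 higher, and medians of -0.55 and 0.29 on the log2 scale. High-ranked among the genes that rose were the astrocyte genes Aldh1a1 and Dio2 and the kinesin gene Kif5a, and those that fell included the myelin gene Mag, the nuclear RNA Meg3 and the synaptic enzyme gene Ache. Limma's moderated test with quality weights gave these calls, and with the 3-digit mice left out and only KO mice of these groups fitted, 0 genes passed. The count was 767 with edgeR's quasi-likelihood test, 1112 with DESeq2, 1010 without quality weights and 972 with age as a covariate, and it ranged from 3282 without mouse 532 to 4762 without mouse 2592.

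The 3-digit mice alone against the KO males gave 5354 called genes (34.4%), of which 2177 were higher (14%) and 3177 lower (20.4%). Mice 2592 and 7_1 against the same males gave 2 genes (0.0129%), both lower, with 1421 genes at an unadjusted p under 0.05, and 1 and 6 genes by edgeR and DESeq2. The median SE of a log2 fold change was 0.117 for the first comparison and 0.191 for the second, so the second could detect less. The direct test of the 3-digit mice against 2592 and 7_1 called 1350 genes (8.68%), 222 higher (1.43%) and 1128 lower (7.25%) in the 3-digit mice. Over the 3177 genes that were lower in the 3-digit mice than in the males, the median log2 fold change was -0.59 in the 3-digit mice and -0.06 in 2592 and 7_1, both measured against the same males.

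A per-mouse level of the called genes was formed as the mean log2 level of the 1618 higher genes less that of the 2822 lower genes, set to 0 at the mean of the KO males. These genes were chosen on the same mice, so the level is a description. It was 1 to 1.18 in the 4 KO mice with 3-digit numbers, 0.485 in mouse 2592, 0.12 in mouse 7_1 and -0.11 to 0.15 in the males. The 3 WT diestrus mice with 3-digit numbers, which were in neither group of this comparison, stood at 0.96 to 1.2. All 48 mice without a 3-digit number lay at or below 0.6. The 7 mice with 3-digit numbers thus lay apart from the rest in both genotypes.

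**Figure D1:**
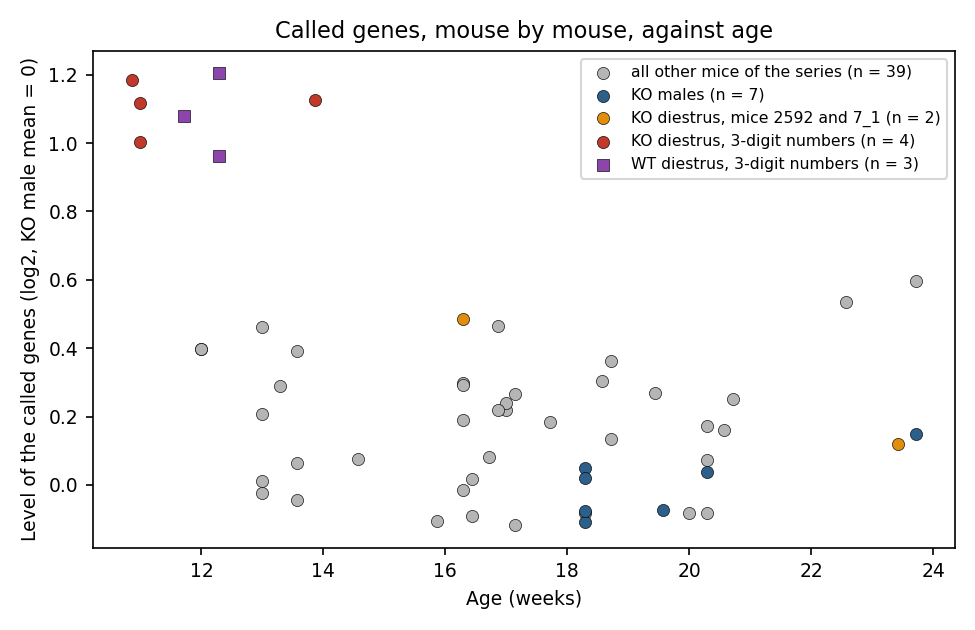
Level of the called genes in each of the 55 mice (log2, y axis, with the KO male mean at 0) against age in weeks (x axis). Each point is 1 mouse. The 7 mice with 3-digit numbers, KO and WT, lie between 0.96 and 1.2, while the other 48 lie between -0.12 and 0.6, including mice of 12 to 14 weeks.

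Mouse 2592 and mouse 7_1 did not behave as a pair. Mouse 2592 shared the low values of the 3-digit mice for several membrane and oligodendrocyte genes, as in Itm2c (389 CPM against 341 to 412) and Opalin (43.5 against 34.4 to 40.5). For nuclear RNAs it stood with the males, at 1150 CPM for Meg3. Mouse 7_1 stood nearer to the males in both, at 628 CPM for Itm2c and 1250 for Meg3. When 7_1 was left out, so that 2592 stood alone against the males and was assumed to vary like the other groups, 394 genes were called, 13 higher and 381 lower.

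Among cell type markers, several genes of astrocytes were higher in KO diestrus. Of 12 astrocyte markers, 6 rose and 0 fell in the 6 mice, beside 10.4% higher and 18.1% lower of all autosomal genes. In the 3-digit mice 7 rose and 0 fell, beside 14% and 20.4%. Medians over all 12 were 0.33 and 0.34, against 0 and -0.01 over all autosomal genes, and 8 of the 12 changes were positive in each comparison. With edgeR, with DESeq2, without quality weights or with age, 3 or 4 rose in the 6 mice and 4 or 5 in the 3-digit mice. Summed over the list, astrocyte markers reached 4490 to 4970 CPM in the 3-digit mice, 3900 in 2592 and 3190 in 7_1, against 2810 to 3290 in the males. The water channel gene Aqp4, a defining marker, did not pass the test, at -0.25 in the 3-digit mice (FDR 0.121).

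Aldh1a1, which encodes a retinaldehyde dehydrogenase that makes retinoic acid, was measured at 119, 125, 133 and 142 CPM in the 3-digit mice, 76.2 in 2592 and 58.6 in 7_1, and at 47.5 to 62.9 CPM with a median of 54.9 in the males. The 3-digit mice did not overlap the males, while 7_1 lay inside their range. Its log2 fold change was 1.09 (SE 0.12, FDR 4.71e-09) in the 6 mice, 1.2 in the 3-digit mice (SE 0.09, FDR 7.23e-15) and 0.25 in the other 2 (FDR 0.657). Dio2, the deiodinase that activates thyroid hormone in astrocytes, showed the same order, with 24.6, 28.2, 31.7 and 24.9 CPM in the 3-digit mice, 13.1 in 2592, 13.8 in 7_1 and 7.53 to 14.1 in the males. Its log2 fold change was 1.13 (SE 0.13, FDR 2.06e-08) in all 6.

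Ndrg2, an astrocyte gene of the N-myc downstream-regulated family, stood at 842, 873, 929 and 745 CPM in the 3-digit mice, 536 in 2592, 437 in 7_1 and 374 to 455 in the males. It had among the smallest FDR values of the 3-digit comparison, 2.46e-15, at a log2 fold change of 0.97 (SE 0.07). Glul, the glutamine synthetase by which astrocytes clear glutamate, rose from 264 to 298 CPM in the males to 432 to 477 in the 3-digit mice, with 336 and 315 in 2592 and 7_1. Here all 6 diestrus mice lay above all 7 males, and the log2 fold change over the 6 was 0.67 (SE 0.08, FDR 4.8e-08). Etnppl, a phospholyase gene of astrocytes, had the largest rise among well-expressed named genes, 1.28 on the log2 scale (SE 0.28, FDR 0.00051).

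The astrocyte markers Aldoc, an aldolase, and Aldh1l1, a folate enzyme, rose by 0.7 (FDR 3.75e-06) and 0.76 (FDR 5.81e-06) on the log2 scale in the 6 mice. Aldh1l1 was at 50.1 to 57.9 CPM in the 3-digit mice and 41.9 in 2592, whereas 7_1, at 23.5, was below the lowest male at 24.7. Sdc4, a heparan sulfate proteoglycan, and Fam107a, an actin-associated gene, rose by 0.97 and 0.99, and Scrg1 by 0.87. The glutamate transporter gene Slc1a2 rose by 0.41 (SE 0.1, FDR 0.00264), and its level in 2592 and 7_1 (715 and 692 CPM) was close to that in the 3-digit mice (712 to 878).

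Outside glia, Kif5a, a kinesin heavy chain that carries cargo along axons, rose from 257 to 394 CPM in the males to 760, 688, 833 and 714 in the 3-digit mice. Mice 2592 and 7_1 had 359 and 438 CPM, so the former lay within the range of the males. The log2 fold change was 0.96 (SE 0.11, FDR 2.06e-08) in the 6 mice and 0.16 (FDR 0.857) in 2592 and 7_1. Of 19 kinesin and dynein motor genes, 4 rose and 1 fell in the 3-digit mice, against 14% and 20.4% of all autosomal genes. The fall was that of the kinesin light chain gene Klc1 (-0.46). The median over the list was only 0.06, but its summed level did not overlap the males. The sum was 5140 to 5220 CPM in the 3-digit mice, 4290 in 2592, 4920 in 7_1 and 4530 to 4810 in the males.

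Markers of mature oligodendrocytes, the cells that make myelin, were lower in KO diestrus. Of 13 autosomal markers 11 fell and 0 rose, both in the 6 mice and in the 3-digit mice alone, with medians of -0.81 and -0.9. The most abundant marker, Mbp, did not pass the test (-0.24 in the 6 mice, FDR 0.0894), nor did Mobp (0.01). The summed level of the list was 2530 to 3200 CPM in the 3-digit mice, 2210 in 2592 and 3410 in 7_1, against 3390 to 4010 in the males. In the 3-digit mice the count of falls was 9 to 12 under the alternatives that kept all mice of both groups, and 10 or 11 when any 1 mouse was left out.

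Mag, the myelin-associated glycoprotein of the membrane next to the axon, had the smallest FDR of all autosomal genes in the 6 mice. Its level was 48.2, 37.2, 41.1 and 58.3 CPM in the 3-digit mice, 70 in 2592, 125 in 7_1, and 132 to 193 CPM with a median of 154 in the males. All 6 diestrus mice lay below all males. The log2 fold change was -1.74 (SE 0.18, FDR 8.11e-10), or -1.84 in the 3-digit mice (FDR 2.48e-14) and -0.83 in the other 2 (SE 0.23, FDR 0.253). Mog and Cldn11, further membrane proteins of myelin, fell by 0.92 (FDR 2.49e-06) and 0.95 (FDR 3.78e-07) on the log2 scale.

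Opalin, a transmembrane gene of mature oligodendrocytes, was 34.4 to 40.5 CPM in the 3-digit mice, 43.5 in 2592, 76.9 in 7_1 and 59.7 to 107 in the males. Its log2 fold change of -0.91 (SE 0.16, FDR 2.3e-05) thus combined 5 low mice with 1 in the range of the males. Among transcription factor genes of the lineage, Sox10 fell by 0.9 (FDR 2.52e-07) and Olig1 by 0.57 (FDR 0.000263). In both, 2592 was with the 3-digit mice and 7_1 with the males. Sox6, a transcription factor gene among the precursor markers, went the other way. It was 11.6 to 13.9 CPM in the 3-digit mice, 9.2 in 2592, 13.6 in 7_1 and 6.16 to 11.2 in the males. Of 12 markers of oligodendrocyte precursors, 1 rose and 5 fell in the 3-digit mice, beside 14% higher and 20.4% lower of all autosomal genes. The largest fall was that of Enpp6 (-1.39, FDR 8.98e-08), a choline phosphodiesterase of newly forming oligodendrocytes, while Pdgfra, the defining receptor of the precursors, fell by 0.37 (FDR 0.0372). The Pdgfra call was lost with edgeR, with DESeq2, without quality weights and without the filter, and also without mouse 532, 645, 2589 or 2591. Without male 2591 the count of falls in this list was 3.

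Microglial markers were divided. Of 12 markers, 1 rose and 5 fell in the 3-digit mice, and 1 rose and 6 fell in all 6, beside 14% higher and 20.4% lower of all autosomal genes in the former and 10.4% and 18.1% in the latter. With edgeR, with DESeq2, without quality weights or with age, 1 to 3 fell in all 6. The surface genes Tmem119 and Cx3cr1, the fractalkine receptor, fell by 0.72 (FDR 1.97e-05) and 0.51 (FDR 0.000549) on the log2 scale in the 6 mice, the latter losing the call under 4 of the alternatives there and under 0 in the 3-digit mice. The marker that rose in the 3-digit mice was the complement gene C1qb (0.46, FDR 0.00143), while C1qa and C1qc, from the same complex, were at -0.4 (FDR 0.0777) and -0.23 (FDR 0.231).

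**Figure D2:**
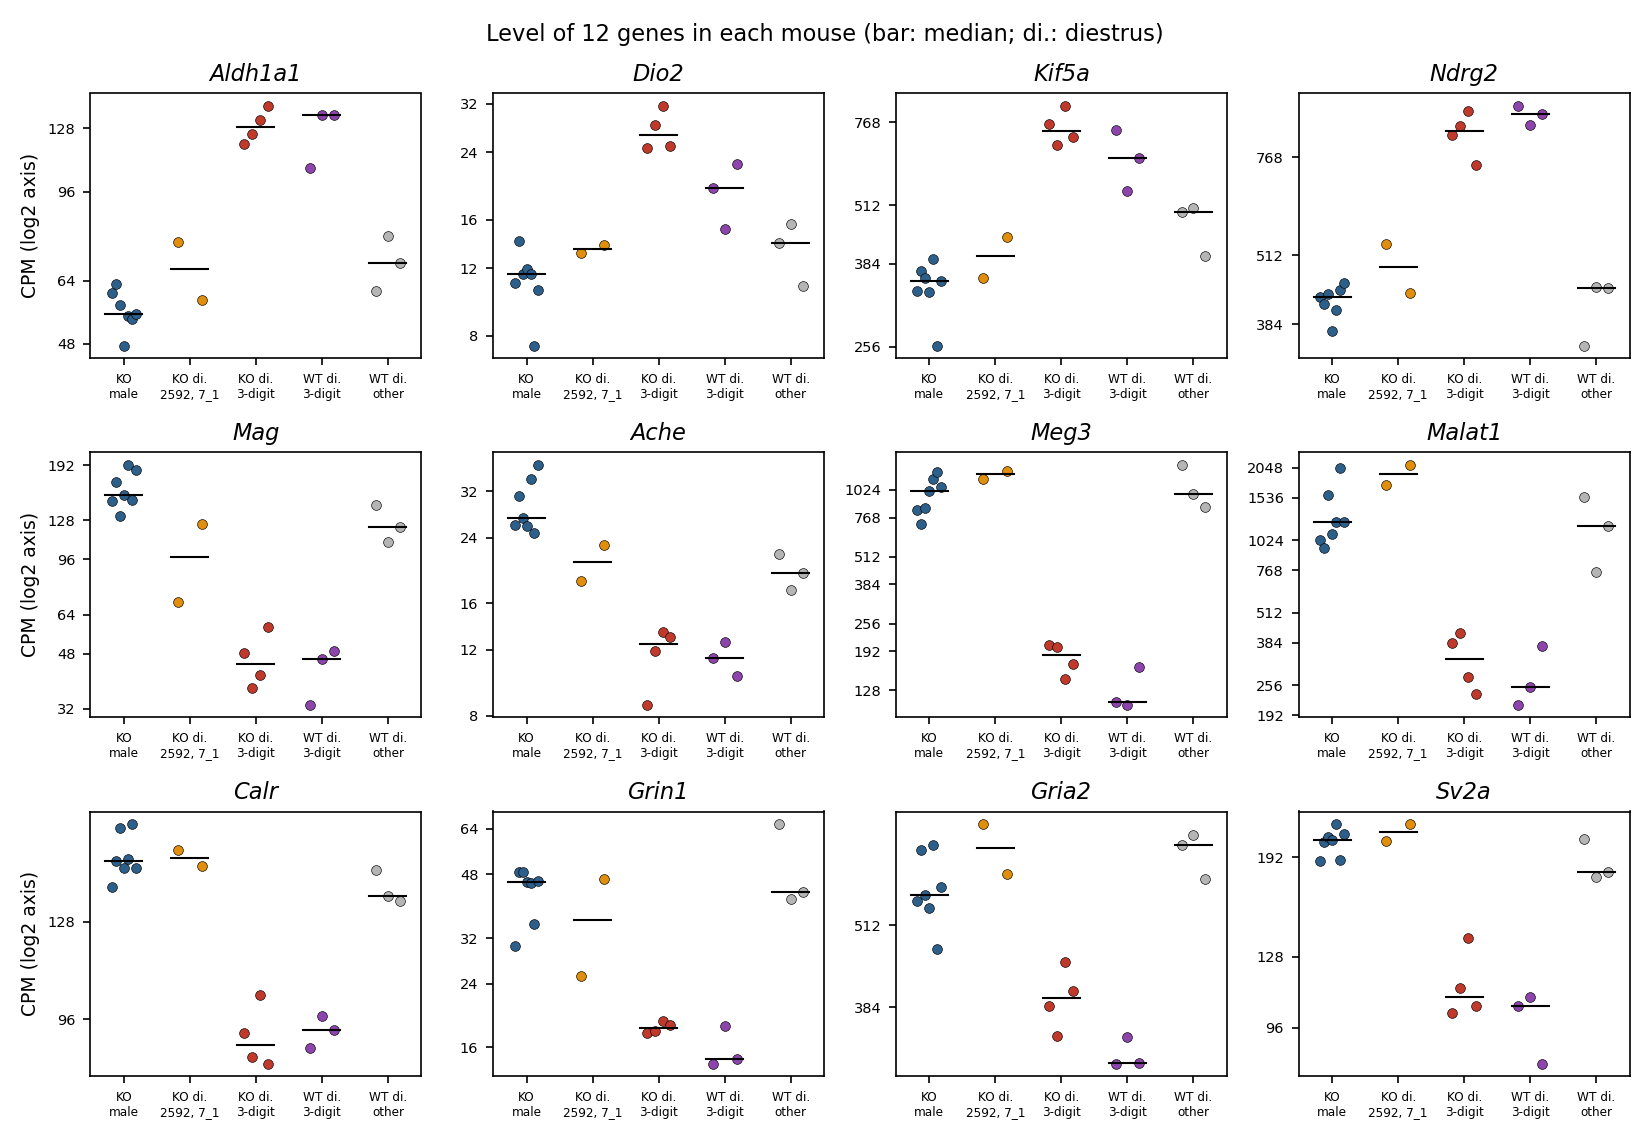
Level of 12 genes in each KO male, KO diestrus and WT diestrus mouse (CPM on a log2 axis, with a scale per gene). Points are mice and bars are medians. For Aldh1a1, Dio2, Kif5a and Ndrg2 the KO mice with 3-digit numbers lie above every KO male, and for the other 8 genes below, while mouse 2592 and mouse 7_1 lie within or above the range of the males for Meg3, Malat1, Calr, Gria2 and Sv2a.

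Genes of ER chaperones and folding enzymes were lower. They assist the folding of membrane and secreted proteins and rise as a group in the unfolded protein response. Of 14 such genes 12 fell and 0 rose, both in the 6 mice and in the 3-digit mice, with medians of -0.51 and -0.59. Of all autosomal genes, 18.1% and 20.4% were lower in these 2 comparisons. The other 2 of the 14, Manf and Sdf2l1, were at -0.08 (FDR 0.581) and 0.03 (FDR 0.931) in the 3-digit mice. The summed level was 792 to 853 CPM in the 3-digit mice, 1140 in 2592 and 1150 in 7_1, and 1030 to 1380 in the males, so the 3-digit mice did not overlap any of the others. In all 6 mice only 3 fell with edgeR or DESeq2, whereas in the 3-digit mice 11 did with either.

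Calr, calreticulin, a calcium-binding chaperone, was 92.2, 85.9, 103 and 84.1 CPM in the 3-digit mice, 158 in 2592, 151 in 7_1 and 142 to 171 in the males. Its log2 fold change was -0.64 (SE 0.1, FDR 4.81e-06) in the 6 mice, -0.75 in the 3-digit mice (SE 0.08, FDR 7.44e-10) and 0.03 in the other 2 (SE 0.13, FDR 0.992). Hsp90b1, the ER form of Hsp90, was 72.8 to 88.9 CPM in the 3-digit mice against 110 to 123 in the males, and Pdia6, a disulfide isomerase, 61.7 to 73 against 79.7 to 116. They fell by 0.52 (FDR 7.3e-05) and 0.5 (FDR 0.000135) in the 6 mice, and neither passed in 2592 and 7_1, at 0.04 (FDR 0.986) and -0.05 (FDR 0.982). Dnajb11, a co-chaperone of Hspa5, fell by 0.55 (FDR 3.85e-05).

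The ER stress element (ERSE), bound by NF-Y and ATF6 or XBP1 in the unfolded protein response, was searched for as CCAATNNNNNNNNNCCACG on both strands in the 250 bases before the start of each gene, taken from RefSeq on GRCm38.p6. It was found in 7 of the 12 ER chaperone genes with such a sequence (58.3%) and in 14 of 10891 autosomal genes tested (0.129%). Of the called genes with a promoter, 9 of 2020 lower in the 6 mice held it (0.446%) and 0 of 1171 higher. These 9 include the 7 chaperone genes with a match, all of them called lower, so the count largely repeats that list. The CCAAT box contained in the element was present in 91.7% of the ER chaperone promoters and in 40.1% of all. The estrogen response element GGTCANNNTGACC matched none of the 10891 in these windows, which says nothing of estrogen receptor binding elsewhere. The promoters of the 4 chaperone genes named above are shown because they fell together and differ in the element, with every ERSE in capitals, on either strand.
Calr, chr8:84846932-84847181, minus strand: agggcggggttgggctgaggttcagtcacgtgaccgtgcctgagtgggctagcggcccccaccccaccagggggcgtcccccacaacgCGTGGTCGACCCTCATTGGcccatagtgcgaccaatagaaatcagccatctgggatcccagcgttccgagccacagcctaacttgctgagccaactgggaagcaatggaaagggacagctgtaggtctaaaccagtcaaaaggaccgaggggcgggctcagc
Hsp90b1, chr10:86705445-86705694, minus strand: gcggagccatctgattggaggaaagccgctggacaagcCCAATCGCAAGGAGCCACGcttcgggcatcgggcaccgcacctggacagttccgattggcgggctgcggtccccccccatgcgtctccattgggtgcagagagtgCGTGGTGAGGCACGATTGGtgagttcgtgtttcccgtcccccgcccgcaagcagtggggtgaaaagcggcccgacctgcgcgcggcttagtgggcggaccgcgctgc
Pdia6, chr12:17266339-17266588, plus strand: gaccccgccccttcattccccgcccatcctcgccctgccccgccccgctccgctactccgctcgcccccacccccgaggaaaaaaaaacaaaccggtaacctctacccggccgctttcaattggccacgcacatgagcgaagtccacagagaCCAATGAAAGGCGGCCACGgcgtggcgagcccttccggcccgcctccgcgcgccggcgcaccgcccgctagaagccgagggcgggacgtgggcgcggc
Dnajb11, chr16:22857595-22857844, plus strand: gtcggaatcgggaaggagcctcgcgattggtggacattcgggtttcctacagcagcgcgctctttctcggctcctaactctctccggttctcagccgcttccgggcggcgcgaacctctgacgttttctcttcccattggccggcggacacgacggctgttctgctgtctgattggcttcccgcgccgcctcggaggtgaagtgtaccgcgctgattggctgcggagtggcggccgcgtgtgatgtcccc

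Calr and Pdia6 held 1 match each, Hsp90b1 held 2, and Dnajb11 held 0 although it fell by a similar amount. In mouse 2592 Calr (158 CPM) and Pdia6 (108) lay within the range of the males and Hsp90b1 (131) above it, while Dnajb11, at 29.4, lay below the lowest male at 31.3. A match is a description of letters, and no binding was measured here.

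The fall was broader than the chaperones and took in many genes for membrane proteins. A hydrophobic segment, taken as a window of 19 residues with a mean Kyte-Doolittle hydropathy over 1.6 in the longest annotated protein, was present in 4594 autosomal genes tested and absent in 8362. This grouping was chosen after the data were seen, and a signal peptide or a buried helix can also score. Of the genes with a segment, 1518 were lower (33%) and 288 higher (6.27%) in the 6 mice, against 976 lower (11.7%) and 1131 higher (13.5%) of those without. In the 3-digit mice the shares were 38% lower and 7.81% higher with a segment, and 12.5% and 17.8% without. Put the other way, 60.9% of the proteins of lower genes had a segment, 20.3% of those of higher genes, and 35.5% of all.

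**Figure D3:**
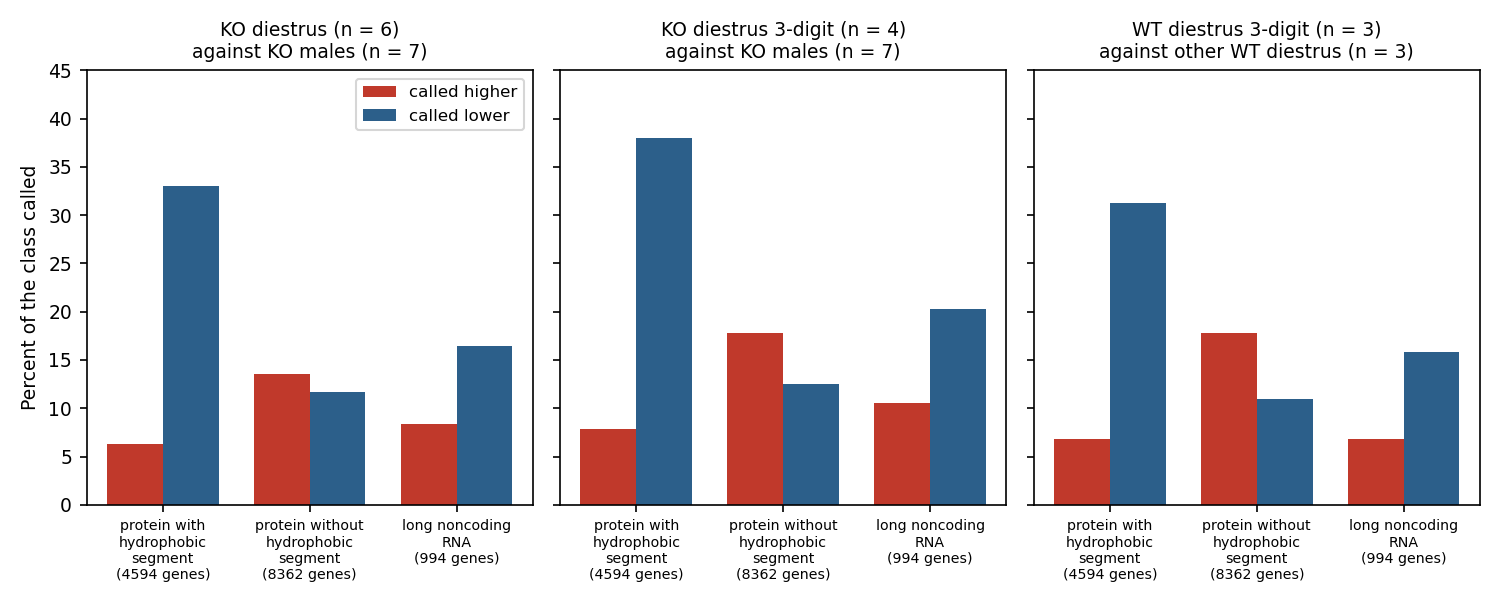
Share of genes called higher (red) and lower (blue), in percent of each class, for proteins with and without a hydrophobic segment and for long noncoding RNAs, in 3 comparisons. In each comparison genes with a segment were called lower more often than higher (33% and 6.27% in KO diestrus against KO males), and genes without one were called higher more often than lower.

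Families were also counted by symbol. Of 242 solute carriers (Slc), which move nutrients, ions and transmitters across membranes, 123 fell and 9 rose in the 6 mice, at a median of -0.32. Of 25 semaphorins and plexins, which guide axons, 16 fell and 0 rose, and of 18 receptor phosphatases (Ptpr) 11 fell and 0 rose. Of 23 genes with a Cacn symbol 13 fell and 1 rose, at a median of -0.48. This symbol covers calcium channel subunits and also Cacng genes, of which several encode AMPA receptor auxiliary proteins. In contrast, 16 of 87 genes with an Rpl or Rps symbol rose (18.4%) and 2 fell, and 13 of 51 initiation factors (Eif) rose (25.5%) and 5 fell. Rpl and Rps symbols are those of cytosolic ribosomal proteins, but the match by symbol also admits S6 kinase genes (Rps6k). Of 19 tubulins 3 rose (15.8%) and 0 fell, a share not far from the 10.4% higher of all autosomal genes. The list of 43 ribosomal protein genes, of which 13 rose in the 6 mice, gave 0 calls with edgeR, with DESeq2, without quality weights, without the filter or with age. The zinc finger genes (Zfp), most of which encode nuclear proteins, had 52 of 336 higher (15.5%) and 31 lower (9.23%), beside 10.4% and 18.1% of all autosomal genes.

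Itm2c and Igsf8 were among the most certain falls. Itm2c, a type II membrane protein that interacts with the amyloid precursor protein, was 404, 386, 341 and 412 CPM in the 3-digit mice, 389 in 2592, 628 in 7_1 and 688 to 852 in the males. All 6 lay below the males, and the log2 fold change was -0.97 (SE 0.11, FDR 2.06e-08). Igsf8, an immunoglobulin superfamily protein bound to tetraspanins, behaved alike, with 29.4 to 36.6 CPM in 5 mice, 62.4 in 7_1, and 63.5 to 87.4 in the males. Ache, the acetylcholinesterase that ends cholinergic signals, stood at 8.54, 11.9, 13.4 and 13 CPM in the 3-digit mice, 18.4 in 2592, 22.9 in 7_1 and 24.7 to 37.7 in the males. Its log2 fold change was -1.33 (SE 0.14, FDR 9.84e-10).

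Cyp46a1, the neuronal enzyme that turns over brain cholesterol, was 15.8 to 25.1 CPM in the 3-digit mice and 23.9 in 2592, but 54.3 in 7_1, within the 46.6 to 119 of the males. It fell by 1.75 on the log2 scale (SE 0.29, FDR 1.36e-05). The males spread widely here, and did so more for H2aj, a histone variant gene (6.58 to 40.3 CPM), and Tbcc, a tubulin folding cofactor gene (5.37 to 29.6 CPM). These fell by 1.66 (FDR 0.00683) and 1.55 (FDR 0.00244), but males 1950, 2128 and 2590 overlapped or came close to the females in both. In the direct test of the 3-digit mice against 2592 and 7_1, Cyp46a1, H2aj and Tbcc had FDR values of 0.358, 0.663 and 0.797.

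Genes of sterol synthesis were also examined, since most of the enzymes sit in the ER membrane. Of 18, 7 fell and 0 rose in the 6 mice, beside 18.1% lower and 10.4% higher of all autosomal genes. In the 3-digit mice 7 fell and 2 rose, beside 20.4% and 14%. Dhcr7, which makes cholesterol from its last precursor, was 22 to 25.5 CPM in the 3-digit mice, 33.2 and 34.7 in 2592 and 7_1, and 27.6 to 39.6 in the males, and fell by 0.49 (FDR 0.00416). Msmo1, a sterol oxidase of the ER membrane, fell by 0.4 (FDR 0.00455). The 2 that rose in the 3-digit mice were Idi1 (0.37, FDR 0.0323) and Hmgcs1 (0.29, FDR 0.0374), whose enzymes act outside the ER, and each lost the call under 5 of the alternatives. In the 6 mice together the count of falls was 3 or 4 when any 1 of the 3-digit mice was left out and 0 with edgeR, with DESeq2, without quality weights or with age, and Dhcr7 and Msmo1 lost the call there under 5 and 4 of the alternatives. In the 3-digit mice neither lost it, and 3 to 7 of the list fell.

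Receptors and channels of the synapse followed the membrane proteins. Of 16 AMPA receptor subunits and auxiliary proteins, the group to which Cnih3 belongs, 7 fell and 1 rose in the 3-digit mice. Of 6 NMDA receptor genes tested 5 fell and 0 rose, of 11 GABA-A receptor genes 7 fell and 0 rose, and of 25 potassium channel genes 15 fell and 0 rose. The shares of all autosomal genes that fell and rose were 20.4% and 14%. In all 6 mice the falls numbered 6, 2, 6 and 11, but 1, 1, 1 and 2 with edgeR and 2, 1, 3 and 2 with DESeq2. In the 3-digit mice they were 5, 2, 6 and 8 with edgeR and 5, 3, 6 and 8 with DESeq2. The NMDA receptor count in the 3-digit comparison was 2 without mouse 532 or 2591 and 3 without 2589. In 2592 and 7_1 none of the members of these lists was called, where 2 of 15554 genes were called in all.

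Gria2, the AMPA receptor subunit that keeps most receptors impermeable to calcium, was 386, 348, 450 and 407 CPM in the 3-digit mice and 471 to 678 in the males. Mice 2592 and 7_1, at 730 and 612, lay above and inside the range of the males. The log2 fold change was -0.59 in the 3-digit mice (SE 0.07, FDR 2.26e-08), 0.17 in the other 2 (FDR 0.748) and -0.76 between them (SE 0.13, FDR 4.57e-05). Among auxiliary proteins, Shisa7 fell by 0.73 in the 3-digit mice (FDR 6.97e-07) and Cacng8, the TARP gamma-8 that is rich in hippocampus, by 0.87 (FDR 0.000416). Gria4 fell by 0.7 (FDR 1.78e-06), and Dlg4, a cytosolic scaffold of the synapse, was the member that rose (0.23, FDR 0.00853). Cnih2, the closest relative of Cnih3 in this list, was at -0.18 (FDR 0.336).

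Grin1, the obligatory NMDA receptor subunit, stood at 17.5, 17.8, 18.9 and 18.5 CPM in the 3-digit mice, 25.1 in 2592, 46.6 in 7_1 and 30.5 to 48.6 in the males. It fell by 1.24 on the log2 scale in the 3-digit mice (SE 0.16, FDR 2.42e-08), more than Grin2b, which fell by 0.48 (FDR 0.000102). Of GABA-A receptor subunits, Gabrg3 fell by 0.76, the extrasynaptic Gabrd by 0.49 and Gabra5 by 0.32. Among potassium channels, Kcna1 fell by 0.58 and Kcnh3 by 1.04 (FDR 0.000347).

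Presynaptic genes were called in both directions. Of 19 on autosomes, 5 rose and 5 fell in the 3-digit mice, beside 14% higher and 20.4% lower of all autosomal genes. The 5 that fell, Sv2a, Sv2b, Slc17a7, Syt1 and Vamp2, all encode integral proteins of the vesicle membrane. Sv2a, a vesicle glycoprotein, was 102, 113, 138 and 105 CPM in the 3-digit mice, 205 in 2592, 220 in 7_1 and 189 to 220 in the males, which is -0.89 on the log2 scale (SE 0.08, FDR 5.37e-12). Slc17a7, the vesicular glutamate transporter, fell by 0.75 (FDR 1.42e-07) and Syt1, the calcium sensor of release, by 0.56 (FDR 3.06e-08). Among those that rose were the active zone gene Rims1 (0.25), the syntaxin gene Stx1a (0.3) and Snap25 (0.2), which encode parts of the release machinery at the target membrane. The count of those that rose was 3 without mouse 532, 645, 2016, 2128, 2129 or 2589, and Sv2b, Vamp2, Snap25 and Rims1 each lost the call under 4 of the alternatives.

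Several RNAs that stay in the nucleus fell far. Of 12 such RNAs 7 fell and 3 rose in the 3-digit mice, at a median of -0.98, and 6 fell and 2 rose in all 6 mice. The shares of all autosomal genes were 20.4% lower and 14% higher in the former and 18.1% and 10.4% in the latter. With edgeR or DESeq2, 6 still fell in the 3-digit mice but 1 in all 6. The summed level was 1460 to 1740 CPM in the 3-digit mice and 2890 to 4790 in the males, while 2592 and 7_1, at 4560 and 4900, were at the top of that range or above it. This list was drawn up with earlier results of these data known, so its direction is not independent of them.

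Meg3, an imprinted long noncoding RNA of chromosome 12, was 205, 201, 144 and 168 CPM in the 3-digit mice, 1150 in 2592, 1250 in 7_1 and 721 to 1230 CPM with a median of 1010 in the males. It fell by 2.39 on the log2 scale in the 3-digit mice (SE 0.19, FDR 1.9e-14), and the 2 other diestrus mice were at 0.33 (SE 0.3, FDR 0.834). With all 6 mice the log2 fold change was -2.08 (SE 0.32, FDR 3.1e-06), and this call was lost with edgeR and with DESeq2. Malat1, a lncRNA of nuclear speckles, was 382, 420, 276 and 236 CPM against 953 to 2050 in the males, with 1730 and 2110 in 2592 and 7_1. It fell by 1.88 (FDR 1.43e-10) in the 3-digit mice.

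Miat and Snhg11, neuronal lncRNAs, fell by 2.11 (FDR 2.55e-09) and 1.71 (FDR 4.24e-11) in the 3-digit mice, and Neat1, the scaffold of paraspeckles, by 1.34 (FDR 2.39e-06). The imprinted RNAs Rian and Peg13 rose, by 0.45 (FDR 0.000517) and 0.34 (FDR 0.000397). Rian and Mirg come from the same imprinted cluster as Meg3, and Mirg fell by 1.8 (FDR 6.55e-06). Over all 994 long noncoding RNAs tested on autosomes, 202 fell (20.3%) and 104 rose (10.5%) in the 3-digit mice, beside 20.4% and 14% of all autosomal genes.

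Splicing factors, whose transcripts often keep introns, were called lower more often than higher. Of 24 SR proteins, hnRNPs and related genes, 10 fell and 1 rose in the 3-digit mice. The shares of all autosomal genes were 20.4% lower and 14% higher. With edgeR, with DESeq2 or without quality weights, 7 fell there. In all 6 mice 9 fell, but 1 under each of these 3 settings and 2 with age. Rsrp1, an arginine- and serine-rich gene chosen for its size of change and not from the list, was 21.4 to 30.1 CPM in the 3-digit mice, 93 and 126 in 2592 and 7_1 and 79.1 to 209 in the males, and fell by 2.11 (SE 0.32, FDR 9.03e-07). Clk1, the kinase of SR proteins, fell from 40.1 to 53.7 CPM in the males to 23.7 to 26.2 in the 3-digit mice, with 56.5 and 53.4 in the other 2 (-0.87, FDR 1.12e-07). Luc7l2 and Srsf11 fell by 0.88 (FDR 4.39e-07) and 0.76 (FDR 6.52e-06). Hnrnpdl fell by 0.47 (FDR 2.91e-07), with 163 and 190 CPM in 2592 and 7_1 against 160 to 174 in the 3-digit mice and 198 to 255 in the males, so here all 6 diestrus mice were below the males.

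**Figure D4:**
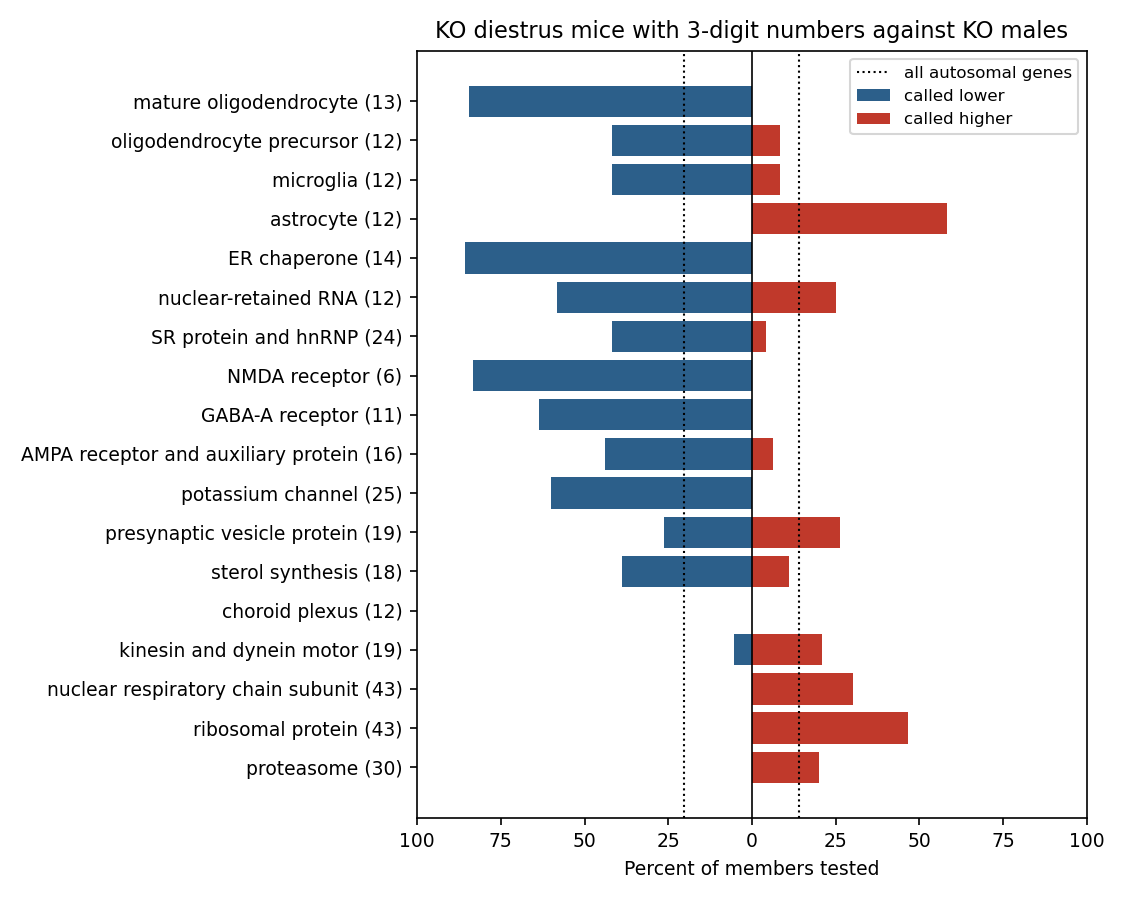
Share of the tested members of 18 gene lists called higher (red, right) or lower (blue, left) in the KO diestrus mice with 3-digit numbers against KO males, in percent, with the number of members in brackets. Dotted lines mark all autosomal genes (20.4% lower, 14% higher). Oligodendrocyte, ER chaperone, NMDA receptor, GABA-A receptor and potassium channel lists lie far to the lower side, and astrocyte and ribosomal protein lists to the higher side.

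Genes of the ribosome, the respiratory chain and the proteasome were higher by small amounts. Of 43 ribosomal protein genes 20 rose and 0 fell in the 3-digit mice at a median of 0.21, of 43 nuclear genes of the respiratory chain 13 rose and 0 fell at a median of 0.19, and of 30 proteasome genes 6 rose and 0 fell at a median of 0.09, beside 14% higher of all autosomal genes. Rpl4, a protein of the large ribosomal subunit, was 1490 to 1660 CPM in the 3-digit mice and 1200 to 1670 in the males, and rose by 0.26 (FDR 0.00113). Cox4i1, a subunit of cytochrome c oxidase whose protein has a hydrophobic segment, rose by 0.38 (FDR 0.000296). Counts of ribosomal protein genes are uncertain where reads are shared with near-identical pseudogenes. Both overlapped the males, of which 2590 was the highest at 1670 and 1360 CPM. None of the ribosomal or respiratory chain genes was called with edgeR, with DESeq2 or without quality weights, 0, 2 and 0 of the proteasome genes were, and the ribosomal count was 1, 3, 4 and 9 without mouse 2589, 2591, 2016 or 643 and 32, 33 and 35 without male 1950, 2590 or 2128. The respiratory chain count was 3 without male 2016, 2589 or 2591, 8 without 643 or 644, and 27 to 32 without male 1950, 2128 or 2590, and the proteasome count was 0 without 532, 645 or 2129 and 2 or 3 without 643, 644, 2016, 2589 or 2591.

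The 13 mRNAs of the mitochondrial genome, which are tested with all genes but are not autosomal, did not share this rise. Of them, 1 fell, mt-Nd3 (-1.81, FDR 0.00184), and the summed level overlapped, at 16500 to 21200 CPM in the 3-digit mice and 15600 to 32000 in the males.

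Markers of hippocampal neurons were called in both directions. Of 12 dentate granule cell markers 3 fell and 1 rose in the 3-digit mice, of 9 CA1 markers 4 fell and 2 rose, and of 11 CA2 and CA3 markers 5 fell and 0 rose on autosomes, beside 20.4% lower and 14% higher of all autosomal genes. The CA2 and CA3 count was 2 with edgeR or DESeq2. C1ql2, a secreted synaptic organizer of granule cells, was 4.09 to 7.48 CPM in the 3-digit mice, 11.5 and 13.4 in 2592 and 7_1 and 11.4 to 19.9 in the males (-1.34, FDR 4.52e-06), whereas the granule cell list summed to 543 to 772 CPM and overlapped the males at 528 to 987. Wfs1, an ER membrane protein of CA1 cells, was 49.4 to 53.5 CPM in the 3-digit mice against 80.1 to 112 in the males (-0.89, FDR 2.64e-08). Among CA1 markers Lypd1 and Mpped1 rose, by 0.41 and 0.31. The position of the dissection was not measured, and the thalamus list, with 119 to 143 CPM against 103 to 163 in the males, gave 1 rise and 0 falls in 10.

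Of 12 interneuron markers 2 fell and 1 rose in the 3-digit mice, beside 20.4% lower and 14% higher of all autosomal genes. Reln and Slc32a1 fell and Gad1 rose. Reln, a large secreted glycoprotein, was 4.41, 4.82, 10 and 4.42 CPM in the 3-digit mice, 15.5 and 14.7 in 2592 and 7_1 and 10.8 to 13.5 in the males, and fell by 1.22 (SE 0.16, FDR 3.23e-08). Slc32a1, the vesicular transporter of GABA, fell by 0.88 (FDR 3.46e-05). Gad1, the cytosolic enzyme that makes GABA, rose by 0.34 (FDR 0.000813). The other 9 markers of the list did not pass, and its summed level overlapped, at 1230 to 1370 CPM against 1160 to 1390 in the males.

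Genes that answer to hormones, activity or the time of day were tested as well. The counts in the 3-digit mice stand beside 14% higher and 20.4% lower of all autosomal genes. Of 6 autosomal steroid hormone receptor genes 0 rose and 1 fell, Pgr, the progesterone receptor, by 0.29 in the 3-digit mice (FDR 0.0192), with 11.4 to 15.6 CPM against 13.5 to 16.8 in the males. This call was lost under 6 of the alternatives. Of 13 glucocorticoid-responsive genes 5 rose and 2 fell, the latter being Per1 (-0.33, FDR 0.0218) and Ddit4 (-0.49), and 3 rose without male 2591. With edgeR, with DESeq2, without quality weights or with age, 0 fell and 2 or 3 rose, and Ddit4 changed sign with age (0.05). The largest rise was that of Plin4, a lipid droplet gene, at 1.9 to 2.69 CPM against 0.392 to 1.43 (1.76, SE 0.54, FDR 0.00926). Of 12 immediate early genes, which report recent activity, 4 fell and 0 rose, with Junb at 8.75 to 20.7 CPM in the 3-digit mice, 7.53 in 2592, 36.6 in 7_1 and 19.2 to 56.5 in the males (-0.99, FDR 0.00368). The count was 2 without mouse 532 or with edgeR or DESeq2 and 0 with age, where Junb was at -0.19 (FDR 0.67). Of 14 clock genes 2 rose and 2 fell, beside 14% and 20.4% of all autosomal genes, and the rises were lost with edgeR and DESeq2. Arntl led the falls (-0.69, FDR 4.68e-05), and the hour of collection is not given per mouse in the sources used here.

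Markers of tissue next to the hippocampus varied widely between mice of a group. Choroid plexus markers summed to 141 to 689 CPM in the 3-digit mice, 58.9 and 37.2 in 2592 and 7_1 and 37.9 to 2130 in the males, and 0 of 12 was called. Ttr, the transthyretin of choroid plexus, ran from 9 to 1960 CPM within the males alone, so that its log2 fold change of 1.24 had an SE of 1.03. Pituitary markers summed to 135 and 184 CPM in mice 532 and 644, 54.7 in 7_1 and 7.96 to 15.8 in the other 3, against 3.99 to 28.3 in the males, and Prl, the pituitary hormone prolactin, was 31.5 and 62.2 CPM in the first 2. Prl had an FDR of 0.0488 in the 6 mice, and this call was lost when any of 10 mice was left out. The blood list was 167 to 243 CPM in the 3-digit mice and 202 to 528 in the males, with 1 of 4 members called lower. The part of these in the results above was not tested.

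The 3-digit mice were then compared with 2592 and 7_1 directly, within KO diestrus. The lower genes with the smallest FDR were Meg3 (-2.73, SE 0.31, FDR 7.57e-08), Malat1 (-2.58), 9530059O14Rik (-2.34, SE 0.3, FDR 7.32e-07) and 2 loci whose transcripts the annotation lists as still to be checked. One of these, Gm43843, was 1.38 to 2.78 CPM in the 3-digit mice, 22.4 and 22.1 in 2592 and 7_1 and 9.78 to 19.7 in the males, and the other, Gm37204, was 0.0421 to 0.214 CPM against 1.78 and 2.21 and 1.15 to 1.61. The higher genes were Ndrg2 (0.79, SE 0.12, FDR 1.71e-05), Aldh1a1 (0.95, SE 0.15, FDR 3.98e-05), 2900052N01Rik (1.27), Kif5a (0.91) and Gm28438 (3.92, SE 0.65, FDR 4.57e-05). Gm28438, at 38.4 to 54.3 CPM in the 3-digit mice and 1.9 to 9.68 in the other 9, lies at chr1:24612775-24613119 (GRCm38) in a nuclear copy of mitochondrial DNA, so the assignment of its reads is uncertain. Of the lists, 7 of 12 nuclear-retained RNAs, 5 of 14 ER chaperones, 3 of 13 oligodendrocyte markers and 3 of 12 astrocyte markers differed, all in the direction seen against the males. The shares of all autosomal genes here were 7.25% lower and 1.43% higher.

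The 2 genes called in 2592 and 7_1 against the males were Slc35e4, a solute carrier of the sugar transporter family, and Pex14, a protein of the peroxisomal import machinery. Slc35e4 was 12.5 and 19.8 CPM in 2592 and 7_1, 17.3 to 21.3 in the 3-digit mice and 20.1 to 32.8 in the males (-0.86, SE 0.18, FDR 0.0272), and it was called in the 3-digit mice too (-0.6, FDR 5.71e-06). Pex14 was 16.2 and 22.5 CPM, against 29.5 to 34.7 in the males (-0.76, FDR 0.0422). Neither gene passed when age was a covariate, since no gene did in this comparison.

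WT mice with 3-digit numbers offered a comparison with no mouse in common. They were 11.71 to 12.29 weeks old and the other WT diestrus mice 16.43 to 17.14. Number and age thus cannot be told apart there either. In WT diestrus, 3 mice with 3-digit numbers against 3 without gave 4800 called genes (30.9%), and 1026 of the 1350 genes called within KO diestrus (76%) were among them, which is 21.4% of the WT calls. All 1026 had the same direction. Over 15554 genes, which are not independent replicates, the log2 fold changes of the 2 genotypes correlated with r = 0.662 and rho = 0.586. A test of whether the difference of the 3-digit mice from the other diestrus mice itself differed between KO and WT called 0 genes (0%). It had 1351 genes at an unadjusted p under 0.05, and 0 were called by edgeR and 0 by DESeq2. Its median SE was 0.26, against 0.117 for the 3-digit KO mice against the males, so it could detect less and does not show that the genotypes were alike.

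**Figure D5:**
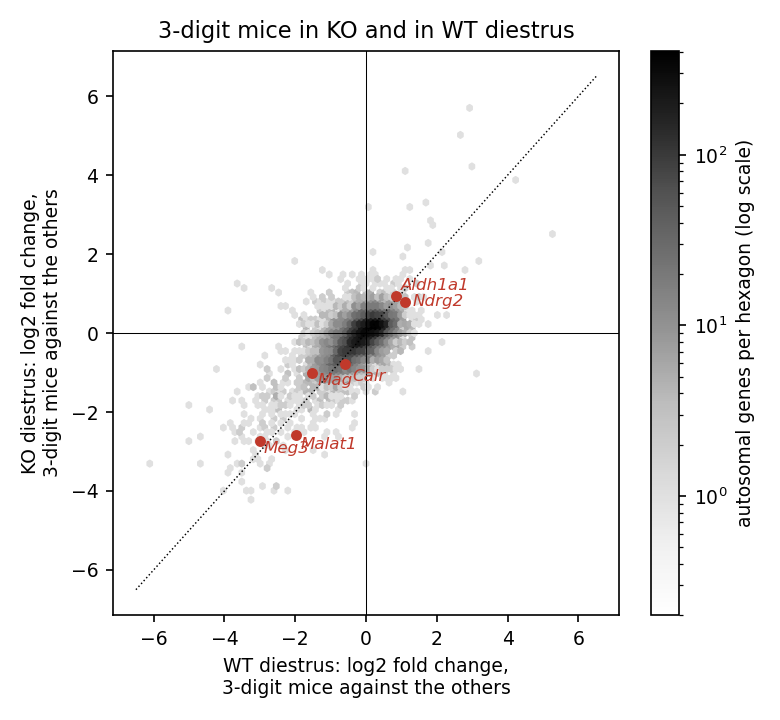
Log2 fold change of the 3-digit mice against the other diestrus mice, in WT (x axis, 3 against 3 mice) and in KO (y axis, 4 against 2 mice), for 15554 autosomal genes. Shading gives the number of genes per hexagon on a log scale, and the dotted line marks equal change. The 6 named genes lie in quadrants of equal sign, Meg3, Malat1, Mag and Calr below 0 in both and Aldh1a1 and Ndrg2 above.

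Many of the genes named above were also called within WT diestrus. There Meg3 was -3 in WT (FDR 3.15e-11), Mag -1.52 (FDR 4.53e-07), Aldh1a1 0.84 (FDR 5.2e-06), Ndrg2 1.1 (FDR 6.87e-11), Calr -0.59 (FDR 0.000222), Grin1 -1.51 (FDR 2.35e-06) and Sv2a -0.88 (FDR 3.03e-07). Of the lists, 11 of 14 ER chaperones and 6 of 13 oligodendrocyte markers fell in the WT mice, and 43 of 43 ribosomal protein genes and 40 of 43 respiratory chain genes rose, with 1 lower. The shares of all autosomal genes there were 17.4% lower and 13.5% higher. Opalin and Sox10, which were low in mouse 2592 too, passed neither within KO diestrus (-0.59, FDR 0.179, and -0.52, FDR 0.125) nor within WT diestrus (-0.32, FDR 0.316, and -0.3, FDR 0.209). The interaction of genotype with the diestrus-male difference over all mice likewise called 0 genes (0%), with 672 at an unadjusted p under 0.05. It called 0 by edgeR and by DESeq2, and up to 29 with 1 mouse left out (WT mouse 548). Its median SE was 0.205, against 0.117 for KO diestrus against KO males, so it too could detect less. The WT males in it were 12 to 23.71 weeks old.

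KO females of other stages under 14 weeks were the remaining comparison. The 6 KO mice in metestrus, proestrus or estrus aged 13 to 13.57 weeks differed from the KO males in 60 autosomal genes (0.386%), 38 higher and 22 lower, and in 0 with age as a covariate. The count was 1, 6 and 7 without male 2591, 2016 or 2589, 234 and 280 without male 2128 or 2129, and 114, 229 and 331 when single females were left out, the last of these without 12_5. It was 25 with edgeR and 107 with DESeq2. The 3-digit diestrus mice differed from these 6 females in 5673 genes (36.5%), or in 3726 without female 12_5. In the young females of other stages Meg3 was at 0.29 (FDR 0.453), Mag at -0.38 (FDR 0.188), Calr at 0.05 (FDR 0.822) and Aldh1a1 at 0.16 (FDR 0.412) on the log2 scale against the males. Their level of the called genes was -0.02 to 0.46, below the 1 to 1.18 of the 3-digit diestrus mice. No 3-digit KO mouse had an age within theirs, mouse 532, at 13.86 weeks, being older and the other 3 younger.

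The genes called in the young females were led by Edem1, Sall3, Marcks, Ikzf2 and Zdbf2, which were higher than in the males. Edem1, an ER degradation factor, was 0.58 higher in them (FDR 0.00232) and 0.36 lower in the 3-digit diestrus mice (FDR 0.0153). Sall3, a zinc finger gene, was higher in both, by 0.81 (FDR 0.00271) and 0.66 (FDR 0.000385), as was Marcks, a substrate of protein kinase C, by 0.42 (FDR 0.00352) and 0.29 (FDR 0.00317). Ikzf2 and Zdbf2 were called in the young females (0.68 and 0.63, each with an FDR of 0.00802) and were at 0.18 (FDR 0.341) and 0.28 (FDR 0.0846) in the 3-digit mice.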

How the data were processed

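Whole-gene raw counts, deposited by the authors for 1 dorsal hippocampus per mouse, were used. Per the labels and the submitters' processing notes, tissue was lysed in NP-40, spun slowly, and RNA of the supernatant was made into libraries with a SMARTer Ultra Low kit, which does not mark strand. Reads of genes that overlap on opposite strands therefore cannot be told apart. The notes name STAR 2.7.9a, featureCounts 2.0.3 and the build GRCm38. Each mouse is 1 sample. The table held 55487 Ensembl genes after 287 repeated lines were merged, and 1 column that belongs to no sample was not used. The deposited CPM, log2 CPM and transcript tables were not used here.

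Genes above 1 CPM in at least 10 of the 55 libraries were kept, with 5 ribosomal genes left out (16168 genes, 15554 autosomal). Counts were scaled by TMM and fitted with voomWithQualityWeights and limma 3.58.1 (edgeR 4.0.16, R 4.3.3) on all 55 mice, with 1 coefficient per genotype and stage or sex, and with diestrus split into 3-digit and other mice where these are compared. Benjamini-Hochberg adjustment ran over all genes tested, the threshold was an FDR of 0.05, and all adjusted p-values are limma's unless another tool is named. The levels in CPM are scaled by TMM. Alternatives were DESeq2 1.42.0, the quasi-likelihood test of edgeR, a fit with no quality weights, no low-count filter, DESeq2 size factors, age as a covariate, only the mice compared, and leaving out each mouse. Scripts were tested on simulated data.

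The members and lists were chosen with earlier results of these data known. Named genes are called autosomal genes with a mean log2 CPM of at least 3 over the 13 mice and a named symbol (8 higher and 8 lower by fold change, 4 and 4 by FDR), up to 4 called members per list (2 of the most abundant where none was called), 5 in each direction for the 3-digit mice against the other diestrus mice and for the latter against the males, up to 5 for the young females, and the checks Cnih3, Plin4, Prl, Xist and Kdm5d. Other list members, such as Aqp4, Mbp, C1qb, Rian, Manf and Stx1a, were named after their values were seen, and some list members are not reported here. The comparison of 3-digit mice with young females, the test of the 3-digit difference between genotypes, the protein classes and the symbol families were added after seeing the data. Sequences are RefSeq promoters on GRCm38.p6, matched by symbol.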

Additional observations from a re-analysis of the deposited data

Results flagged for a closer look

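Of 222 gene-and-group pairs examined in the 6 KO diestrus mice or the 7 KO males, 20 held 1 mouse whose gap to the nearest other exceeded Dixon's 95% critical share of the group's range on the log2 scale. Chance alone exceeds it in about 1 of 20 groups, and genes of a mouse are not independent.

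Mouse 7_1 stood apart from the other 5 diestrus mice in 8 genes. It was high for Cyp46a1 (54.3 CPM against 15.8 to 25.1), Itm2c (628 against 341 to 412), Igsf8 (62.4 against 29.4 to 36.6) and Grin1 (46.6 against 17.5 to 25.1), which encode membrane proteins. It was also high for the oligodendrocyte genes Opalin (76.9 against 34.4 to 43.5), Sox10 (29.7 against 14.7 to 18.2) and Olig1 (29.5 against 16.9 to 20.5), and low for the astrocyte gene Aldh1l1 (23.5 against 41.9 to 57.9). Mouse 2592 was high for mt-Nd3 (22.2 CPM against 4.09 to 7.13) and Rian (191 against 145 to 158) and low for Sall3 (3.95 against 5.37 to 6.28). Mouse 644 was high for Slc1a2 (878 CPM against 692 to 723).

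Among the males, mouse 2590, which had the lowest quality weight of the 13 (0.28), stood apart in 7 genes. It was low for Sdc4 (59.5 CPM against 102 to 116), Kif5a (257 against 335 to 394), Pdgfra (6.97 against 11.3 to 13), Hmgcs1 (110 against 170 to 214) and Sdf2l1 (5.82 against 12.3 to 15), and high for C1qa (45.4 against 21.9 to 28.6) and Gabrd (48 against 33.2 to 38.4). Male 1950 was low for Cacng8 (8.53 CPM against 10.8 to 12.6).

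The difference from the KO males itself differed between the 3-digit and the other KO diestrus mice, with 1350 autosomal genes called in the direct test.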

How the results depend on the processing

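No paired analysis was possible because the replicate numbers only name mice and no animal is in both groups. Where a count changed by over 1.5 times, the cause was not tested. For the 6 KO diestrus mice against the KO males (4440 genes), the count was 2471 at an FDR of 0.01, 767 with edgeR, 1112 with DESeq2, 1010 without quality weights, 2547 without the low-count filter, 972 with age as a covariate and 0 with the 3-digit mice left out and only the KO mice compared in the fit. It was 3282 to 4762 with 1 mouse left out. With DESeq2 size factors the share of lower calls went from 63.6% to 59.8%. For the 3-digit mice against the males (5354), it was 2902 with edgeR, 3203 with DESeq2, 2800 without weights, and, for pairs of these mice, 2906 (532 and 643), 3217 (532 and 644), 2942 (643 and 644), 2690 (643 and 645), 3077 (644 and 645) and 4810 (532 and 645), and 3962 to 5577 with 1 mouse left out. For 2592 and 7_1 against the males (2), it was 1 with edgeR, 6 with DESeq2, 68 without the filter, 0 with age or with only the mice compared, and 0 to 394 with 1 mouse left out. For the 3-digit against the other KO diestrus mice (1350), it was 2135 without the filter, 861 with only the mice compared and 910 to 1537 with 1 mouse left out, and for the same in WT (4800), 3581 to 4642. For the young females against the males (60), it was 25 with edgeR, 107 with DESeq2, 17 without weights, 18 without the filter, 0 with age, 7 with only the mice compared and 1 to 331 with 1 mouse left out. For the 3-digit mice against the young females (5673), it was 2794 with edgeR, 3036 with DESeq2, 2698 without weights and 3726 to 6169 with 1 mouse left out. The interaction of genotype with the diestrus-male difference gave 0 to 29 and that with the 3-digit difference 0 to 47 with 1 mouse left out, and the latter gave 9 without the filter.

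Of the 113 genes examined, 96 were called in the 6 mice, 38 of them under every alternative and 84 without each mouse, and 100 in the 3-digit mice, 71 under every alternative and 88 without each mouse. In the 6 mice the log2 fold change changed sign for Ttr (-1.13 with edgeR, -1.11 with DESeq2, -0.01 to 1.95 with 1 mouse left out), Mobp (-0.03 with edgeR and without the filter, -0.01 with DESeq2, -0.05 without weights, -0.05 to 0.05 with 1 mouse left out) and Sdf2l1 (0.07 with age, -0.35 to 0.01 with 1 mouse left out). In the 3-digit mice it did so for Ttr (-0.59 with edgeR, -0.56 with DESeq2), with age for Ddit4 (0.05), Pex14 (0.01), Mbp (0.07) and C1qa (0.13), and with 1 mouse left out for Sdf2l1 (-0.06 to 0.18), Manf (-0.2 to 0.02) and Mobp (-0.02 to 0.1). Of these only Ddit4 and Pex14 were called in the 3-digit mice. With 2 mice, 2592 and 7_1 against the males had the larger errors, so a missed call there does not show that the values were alike.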
